A study of Mus musculus with 4 samples.

Results

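The AGPAT family is a set of 6 genes, *Agpat1*, *Agpat2*, *Agpat3*, *Agpat4*, *Agpat5* and *Lclat1*, taken by gene symbol from a table of 52550 genes counted in an anti-YTHDF2 pulldown of mouse retina RNA. The family was chosen by the RIP over input change of *Agpat4*, one of the largest rises in the pulldown, so that rise is described without a test. The other 5 genes are included by family name. RNA immunoprecipitation (RIP) pulls down a protein with an antibody and sequences the RNA that comes with it. Retinas of wild type C57BL/6 mice at postnatal day 0 were dissociated with papain, and each of 2 biological replicates gave an input library, made from RNA before the pulldown, and a RIP library, made from RNA recovered with the YTHDF2 antibody. All 4 libraries are thus of the same strain, age, tissue and genotype, and differ only in the pulldown. How many animals were pooled in a replicate is not given in the sources used here, and the control IgG pulldown named in the methods was not analysed here.

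YTHDF2 is a cytoplasmic protein that reads N6-methyladenosine (m6A) in mRNA and speeds the decay of the transcripts it holds. The AGPAT enzymes add a fatty acyl chain to lysophosphatidic acid and so make phosphatidic acid, the branch point from which cells build triglycerides and the membrane phospholipids. AGPAT1 and AGPAT2 are the classical enzymes of the endoplasmic reticulum, and loss of AGPAT2 causes congenital lipodystrophy in humans. AGPAT3, AGPAT4 and AGPAT5 are related enzymes with other substrate preferences and membranes, of which AGPAT3 is linked to the docosahexaenoic acid-rich lipids of photoreceptors. LCLAT1 remodels the acyl chains of cardiolipin, the lipid of mitochondrial membranes, and of phosphatidylinositol.

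All 6 genes are protein-coding on GRCm38 (GENCODE M21). *Agpat4* (ENSMUSG00000023827) spans 12118704 to 12219645 of chromosome 17 (plus strand), and its longest coding transcript has 1915 nt, of which 566 nt are 3′ UTR. *Agpat1* (ENSMUSG00000034254) and *Lclat1* (ENSMUSG00000054469) are on the same strand and chromosome, at 34604262 to 34613449 and 73107985 to 73243368. *Agpat2* (ENSMUSG00000026922) spans 26593057 to 26604417 of chromosome 2 (minus strand). *Agpat3* (ENSMUSG00000001211) spans 78269178 to 78352489 of chromosome 10 (minus strand), and *Agpat5* (ENSMUSG00000031467) 18846277 to 18891361 of chromosome 8 (plus strand). Their longest coding transcripts run from 1489 nt for *Agpat2* to 10779 nt for *Agpat5*. The coding sequences are related but far apart, with 61.2% to 68.5% identity at aligned positions over the 15 pairs of genes. The closest pair was *Agpat3* and *Agpat4*. No stretch of 50 nt in these transcripts was shared between members, so that reads of that length could not be confused within the family. With other genes, *Agpat5* shared most, 18.6% of its stretches of 50 nt, nearly all with the opposite-strand *Gm35934*, which had 0 counts in every library. *Agpat1* and *Agpat2* shared 2.43% and 1.04% with the opposite-strand *Egfl8* and *Egfl7*, of which *Egfl7* had 35 and 9 counts in input and 24 and 13 in RIP, in the same range as *Agpat2* itself. Whether strand was used in counting is not given in the sources used here, so that reads of *Agpat2* and *Egfl7* in the shared exon bases cannot be told apart. The same limit holds for the 101 exon bases that *Agpat1* shares with *Egfl8* and the 2043 that *Agpat5* shares with *Gm35934*. The 0 counts of *Gm35934* do not show how reads in those bases were assigned.

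Because YTHDF2 reads m6A, GGACT, a core form of the sequence in which m6A is found, was searched on the sense strand of the longest coding transcript. Of 11952 tested protein-coding genes with a coding transcript, 93.1% held at least 1 copy. *Agpat4* held 2 copies, *Agpat1* and *Agpat3* held 4 each, *Agpat5* held 7, *Lclat1* held 8 and *Agpat2* held none. The copy nearest to the end of the coding sequence is shown for each gene that has any, with the other *Agpat4* copy, on the transcribed strand and with the searched letters in capitals.
Agpat4, at the stop codon, chr17:12219061-12219089, plus strand: acggaaacaaacGGACTgatgtgggaaag
Agpat4, coding sequence, chr17:12210339-12210367, plus strand: gctgcacctccgGGACTacccagagaagt
Lclat1, coding sequence, chr17:73240131-73240159, plus strand: agaatatttggtGGACTggaaatcattga
Agpat1, 3′ UTR, chr17:34612576-34612604, plus strand: tgccccacccttGGACTctcctgcgtggg
Agpat5, 3′ UTR, chr8:18884091-18884119, plus strand: atcattagcactGGACTcactctcctcac
Agpat3, 3′ UTR, chr10:78271074-78271102, minus strand: ttgagcatctagGGACTgtgcttctctct
In *Agpat4* the last letter of the motif is the first base of the TGA stop codon, a feature noticed after the sequences were read. The motif overlapped the stop codon in 169 of the 11952 genes (1.41%), whose median log2 fold change of 0.02 lay close to the 0.04 of the other coding genes. Of the 169, which include *Agpat4*, 9 (5.33%) were enriched at an adjusted p below 0.05 by edgeR, against 3.79% of the other coding genes. Whether these shares differ was not tested. In the other 4 genes with a copy, the A of the nearest one lay 75 nt before the end of the coding sequence in *Lclat1* and 153 nt, 2142 nt and 2599 nt after it in *Agpat1*, *Agpat5* and *Agpat3*. These letters mark no measured methylation and no measured binding site. *Agpat4* was not rich in them, with 1.04 copies per kb, the same as the median of 1.04 over the tested coding genes.

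Libraries held 19530226 to 39499994 counts, of which 2083594 to 4175459 fell on protein-coding genes. All 6 members passed the filter on low counts, as 13632 genes did. Marker levels were summed in CPM (counts scaled by the TMM-adjusted library size). Retinal progenitor markers summed to 353 and 272 CPM in the inputs and 204 and 186 CPM in RIP. Those of photoreceptor precursors summed to 105 and 96.0 CPM in the inputs and 127 and 141 CPM in RIP. Ganglion cell markers summed to 43.7 and 34.1 CPM in the inputs and 16.5 and 16.7 CPM in RIP. Most of that fall was *Sncg*, which went from 22.9 and 13.7 CPM to 1.58 and 1.79 CPM, a log2 fold change of -3.43. The other ganglion cell markers ran from -0.83 for *Thy1* to -0.09 for *Pou4f1*. For amacrine and horizontal cells the sums were 73.0 and 115 CPM in the inputs and 57.6 and 52.7 CPM in RIP. Endothelium and blood markers summed to 30.9 and 31.0 CPM in the inputs and 63.4 and 65.5 CPM in RIP. Nearly all of this was *Kdr*, at 29.9 and 30.2 CPM in the inputs and 63.3 and 65.0 CPM in RIP. The other markers of that list had at most 14 counts in any library. None of them was higher in both RIP libraries than in both inputs, and *Pecam1* and *Hba-a1* were lower, so the sum describes *Kdr* alone. Astrocyte and microglia markers summed to 15.1 to 18.3 and 1.89 to 4.32 CPM over the libraries. The astrocyte sum was mostly *Slc1a3*, at 13.9 to 16.5 CPM, while *Gfap* was at 0.262 to 0.872 CPM and *Aqp4* at 0 in all libraries. Of 6 lens markers 5 were at 0 in both inputs, as were 5 of 6 markers of pigment epithelium. The input levels are those of bulk tissue, in which the number of cells that express a gene and the RNA per cell cannot be told apart.

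In the input, the family fell into a pair of well expressed genes and a group of weakly expressed genes, and *Agpat4* belonged to the latter. Levels between genes are compared in FPKM, the deposited values per length and library size. *Agpat1* was at 2.24 and 3.88 FPKM in input replicates 1 and 2, and *Agpat3* at 3.30 and 2.24 FPKM, so that the order of these genes was not the same in both replicates. *Lclat1* followed at 0.500 and 0.477 FPKM. *Agpat4* was at 0.279 and 0.605 FPKM, which spans the level of *Lclat1*. *Agpat5* at 0.222 and 0.317 FPKM and *Agpat2* at 0.298 and 0.237 FPKM were lowest by their means, and neither could be ranked above the other. In input replicate 1 *Agpat4* lay below *Agpat2*.

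**Figure D1:**
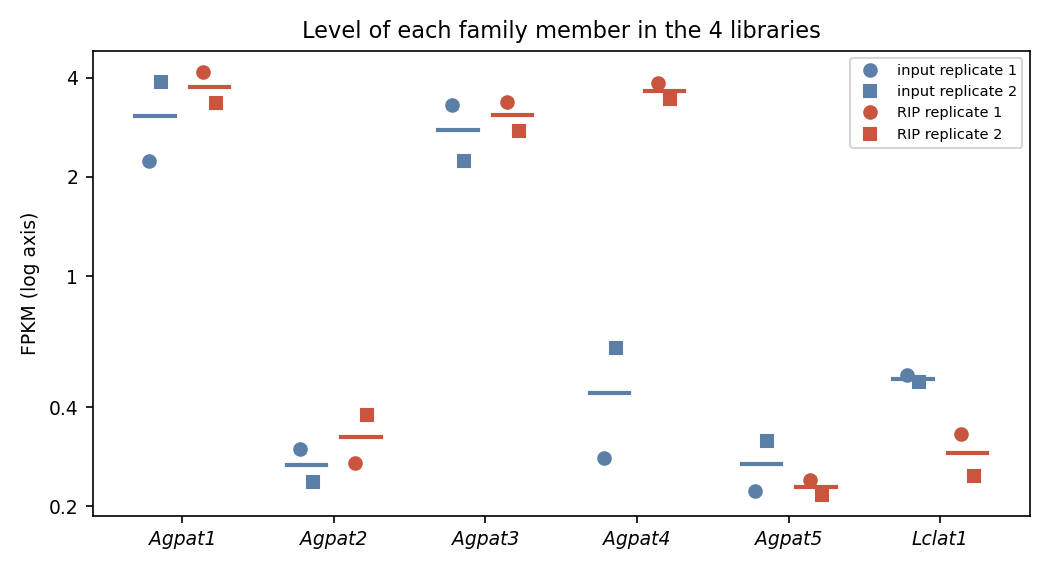
Levels of the 6 genes in FPKM on a log axis, with input libraries in blue, RIP libraries in red, circles for replicate 1, squares for replicate 2 and bars at the mean of each pair. *Agpat4* moves from between 0.279 and 0.605 FPKM in the inputs to 3.84 and 3.45 FPKM in the RIP libraries, beside *Agpat1* and *Agpat3*.

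In the RIP libraries *Agpat4* had joined the well expressed pair. It stood at 3.84 and 3.45 FPKM, level with *Agpat1* at 4.17 and 3.34 FPKM and with *Agpat3* at 3.38 and 2.76 FPKM. The remaining 3 genes stayed low and close together. *Agpat2* had the highest mean FPKM of these, with values that overlapped those of *Lclat1*, and no change of rank is read from it. *Agpat2* was at 0.270 and 0.379 FPKM, *Lclat1* at 0.332 and 0.248 FPKM and *Agpat5* at 0.240 and 0.217 FPKM. Of the summed FPKM of the 6 genes, *Agpat4* made up 4.09% and 7.79% before the pulldown and 31.4% and 33.2% after it. The sum itself was 6.84 and 7.76 FPKM before and 12.2 and 10.4 FPKM after. In CPM, with TMM scaling, it was 48.3 and 40.8 before and 45.6 and 51.1 after, which overlap. By FPKM *Agpat4* was thus as prominent in the pulldown as the main AGPAT genes of the retina, although its input level was close to that of the minor ones. In CPM, which is not scaled for length, *Agpat4* made up 19.2% and 20.6% of the family in RIP. There *Agpat3* made up 48.7% and 47.6% and *Agpat1* 23.2% and 22.1%.

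**Figure D2:**
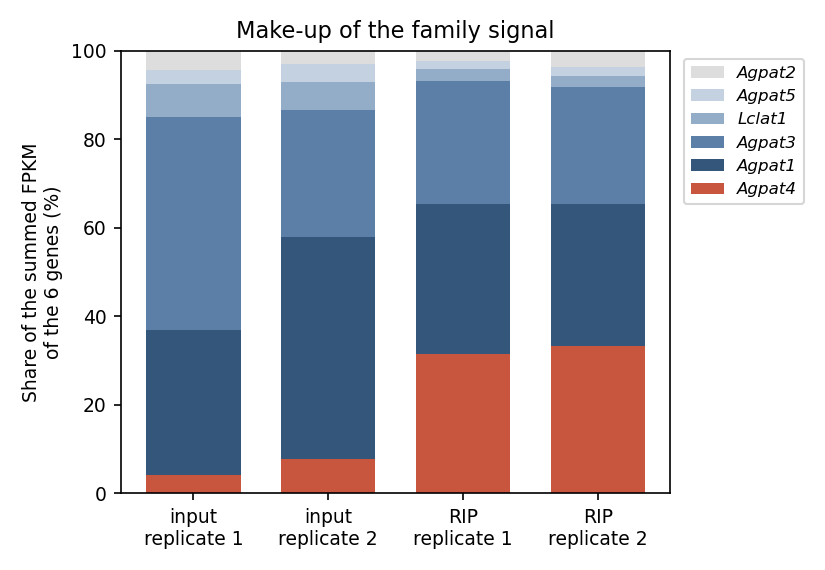
Share of each gene in the summed FPKM of the 6 genes, by library, each bar adding up to 100%. *Agpat4*, at the bottom in red, takes 4.09% and 7.79% of the inputs and 31.4% and 33.2% of the RIP libraries.

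Each of the 13632 tested genes was compared between RIP and input with the quasi-likelihood test of edgeR, and called at a Benjamini-Hochberg adjusted p below 0.05. Across all tested genes, 3.48% were called enriched and 9.78% depleted. Over all of them the log2 fold changes had a median of -0.05, the same as the -0.05 of the 6 members. Without *Agpat4* the median of the family was -0.14.

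*Agpat4*, the member that was chosen for its rise, was counted 33 and 63 times in the 2 inputs, against 221 and 253 times after the pulldown. Both RIP libraries were several times above both inputs. This is 1.41 ± 0.598 CPM (SD, n = 2) before and 9.63 ± 1.24 CPM after the pulldown. The fitted log2 fold change was 2.77 (standard error 0.445), or 6.80-fold, and the ratios within replicates 1 and 2 were 3.06 and 2.47. On the log2 scale the inputs differed more from each other than the RIP libraries did, and the fitted rise was 2.39 when input replicate 1 was left out and 3.27 when input replicate 2 was. Its fold change ranked 51 from the top among all tested genes. Only the pseudogene *Tdgf1-ps2* overlaps it, on the same strand and with no shared exon, and had 0 counts in both inputs and 3 and 4 in the RIP libraries.

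None of the other 5 members was called, and the spread between libraries leaves their changes open within the intervals given here. None passed a log2 fold change of 1 with an unadjusted p below 0.05 either, limits that 9.43% of all tested genes passed as enriched and 17.2% as depleted. At an unadjusted p below 0.05 alone there was 1, *Lclat1*, by edgeR and none by DESeq2 or by limma on log2 FPKM. The share of all tested genes past that limit alone was not computed, so nothing is read from this count. *Agpat3*, the member with most counts, was counted 1072 and 663 times in input and 561 and 586 times in RIP. These are levels of 25.7 ± 9.07 CPM (SD, n = 2) and 23.3 ± 1.50 CPM, which overlap. Its log2 fold change was -0.14 (95% interval -0.98 to 0.70, adjusted p = 0.835, edgeR), and it was above 0 with library size scaling and on FPKM. *Agpat1* was counted 281 and 440 times in input and 267 and 272 times in RIP, or 10.6 ± 3.11 CPM and 10.9 ± 0.513 CPM. Both RIP libraries lay between the inputs, and the log2 fold change was 0.04 (95% interval -0.77 to 0.86, adjusted p = 0.950, edgeR). *Agpat2* was the least covered, with 27 and 20 counts in input and 13 and 22 in RIP. Its replicates went opposite ways, at -0.59 and 0.59, and its log2 fold change of 0.04 had a 95% interval of -1.49 to 1.56 (adjusted p = 0.978, edgeR), which reaches past a 2-fold change in both directions.

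**Figure D3:**
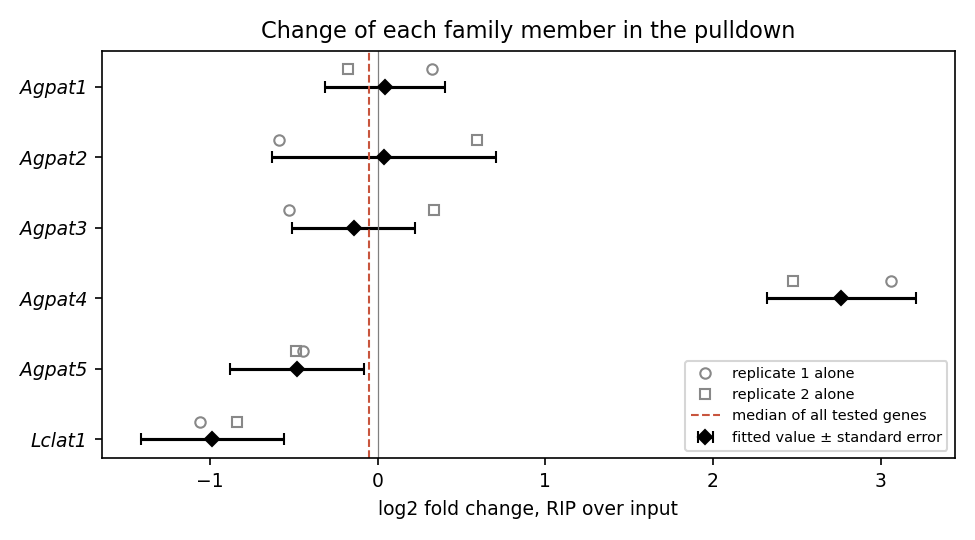
Log2 fold change of RIP over input for the 6 genes, with diamonds and bars for the fitted value and its standard error, open circles and squares for replicates 1 and 2 alone, and a dashed line at the median of all tested genes (-0.05). *Agpat4* stands at 2.77 and *Lclat1* at -0.99, while the other 4 genes are between -0.48 and 0.04.

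The members at the low end were those whose RIP libraries both lay under both inputs in CPM. *Lclat1* went from 99 and 86 counts to 35 and 33. These are 2.74 ± 0.327 CPM (SD, n = 2) before and 1.38 ± 0.0108 CPM after the pulldown, and its FPKM values did not overlap either. The log2 fold change was -0.99 (standard error 0.428, 95% interval -1.96 to -0.01), with an unadjusted p of 0.0478 and an adjusted p of 0.164 by edgeR. *Agpat5* had 100 and 129 input counts and 55 and 64 RIP counts, or 3.38 ± 0.537 CPM and 2.42 ± 0.340 CPM, and its FPKM values overlapped. The log2 fold change was -0.48 (95% interval -1.39 to 0.43, adjusted p = 0.460, edgeR), with -0.45 and -0.49 in replicates 1 and 2. Such separation, with both RIP libraries below both inputs, was common, being found in 31.3% of all tested genes. In the opposite direction, that of *Agpat4*, it was found in 29.6%.

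Transcript length moved with the pulldown across the transcriptome, and *Agpat4* lay above the median of its length group. Over 11953 tested protein-coding genes, the median log2 fold change rose from -1.53 in the shortest of 10 groups by transcript length to 0.55 in the longest. *Agpat4* and *Agpat1*, at 1915 nt and 2190 nt, belong to the group from 1899 to 2377 nt, whose median was -0.31. Among its 1190 genes *Agpat4* ranked 5 from the top and *Agpat1* ranked 392. *Agpat4* was chosen for its rise, so its high rank among transcripts of its length follows from that choice and is a description. The long members lay on the other side. *Agpat5*, in the longest group with a median of 0.55, ranked 1058 of 1195, *Lclat1* (4467 nt, group median 0.29) ranked 1092 of 1195 and *Agpat3* (5980 nt, group median 0.49) ranked 952 of 1196. With smooth trends on length and GC content taken out, *Agpat4* was at 3.12 and *Lclat1*, *Agpat5* and *Agpat3* were at -1.23, -0.86 and -0.86. In the same fit *Agpat2* moved from 0.04 to 0.57 and *Agpat1* was at 0.08. None of the other 5 members was called in that fit either (adjusted p of 0.153 for *Lclat1*, edgeR).

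**Figure D4:**
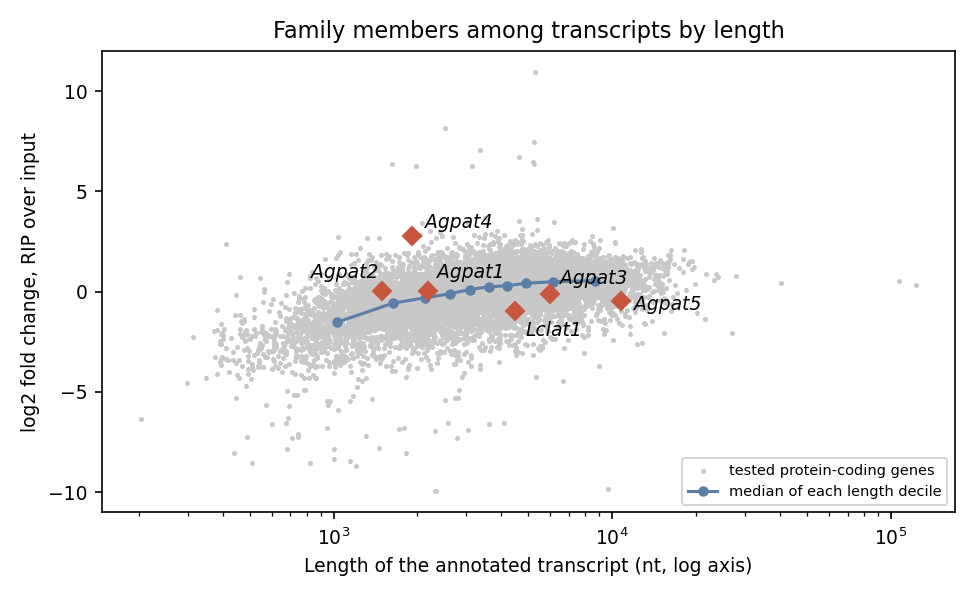
Log2 fold change against the length of the annotated transcript (log axis) for the tested protein-coding genes (grey), with the median of each of 10 length groups in blue and the 6 members as red diamonds. *Agpat4*, which was chosen for its rise, lies above nearly all transcripts near 1915 nt, whose group median is -0.31. *Agpat5*, *Lclat1* and *Agpat3* lie below the medians of their length groups.

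The steps before and after the AGPAT reaction were examined with a list of 63 genes of glycerolipid synthesis and signalling, of which 51 were tested. By the adjusted p, 2 were enriched (3.92% against 3.48% of all tested genes) and 0 were depleted. The median log2 fold change of the list was -0.01 against -0.05 for all tested genes, and 25 of the 51 were above 0. In the fit blocked on replicate, 4 were enriched and 1 was depleted, against 721 enriched and 1602 depleted among the 13632 tested genes. Counts with a library left out are given further below, beside those of all tested genes in the same fits.

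The enriched genes were *Gpam* and *Cds2*, a share close to that of all tested genes. *Gpam*, the mitochondrial glycerol-3-phosphate acyltransferase that makes the lysophosphatidic acid on which AGPAT enzymes act, rose from 80 and 86 counts to 197 and 173. Its log2 fold change was 1.61 (standard error 0.373, adjusted p = 0.0260, edgeR). *Cds2*, which turns phosphatidic acid into CDP-diacylglycerol, the precursor of phosphatidylinositol and cardiolipin, rose from 286 and 253 counts to 919 and 608. Its log2 fold change was 1.95 (standard error 0.363, adjusted p = 0.0113, edgeR). Both transcripts are long, at 6172 nt and 8396 nt. With the trends on length and GC content taken out *Gpam* was at 1.05 (adjusted p = 0.156) and *Cds2* at 1.22 (adjusted p = 0.101), so that neither was then called. Nor was either called without RIP replicate 1 (*Gpam* 1.64, adjusted p = 0.261, and *Cds2* 1.77, adjusted p = 0.203, edgeR) or RIP replicate 2 (*Gpam* 1.75, adjusted p = 0.218, and *Cds2* 2.28, adjusted p = 0.0889, edgeR), fits in which 8 and 9 genes in all were called enriched.

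Of the glycerol-3-phosphate acyltransferases only *Gpam* and *Gpat4* were tested. *Gpat4*, the isoform of the endoplasmic reticulum, was counted 455 and 240 times in input and 630 and 614 times in RIP, and its log2 fold change was 1.29 (adjusted p = 0.0689, edgeR). Blocking on replicate took it past the threshold (1.37, adjusted p = 0.0401), and it also passed with DESeq2 (adjusted p = 0.0171), with library size alone (adjusted p = 0.0294, edgeR) and with limma on log2(FPKM + 0.1) and log2(FPKM + 1) (adjusted p of 0.0365 and 0.0242). *Etnk1*, an ethanolamine kinase, also passed with the block, at 1.47 (adjusted p = 0.0277) in place of 1.33 (adjusted p = 0.104). *Chpt1*, a choline phosphotransferase, went from 27 and 75 counts to 8 and 4. It was the gene depleted with the block, at -2.46 (adjusted p = 0.0330) in place of -2.61 (adjusted p = 0.0587). *Gpat4*, *Etnk1* and *Chpt1* were singled out after their values were seen.

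**Figure D5:**
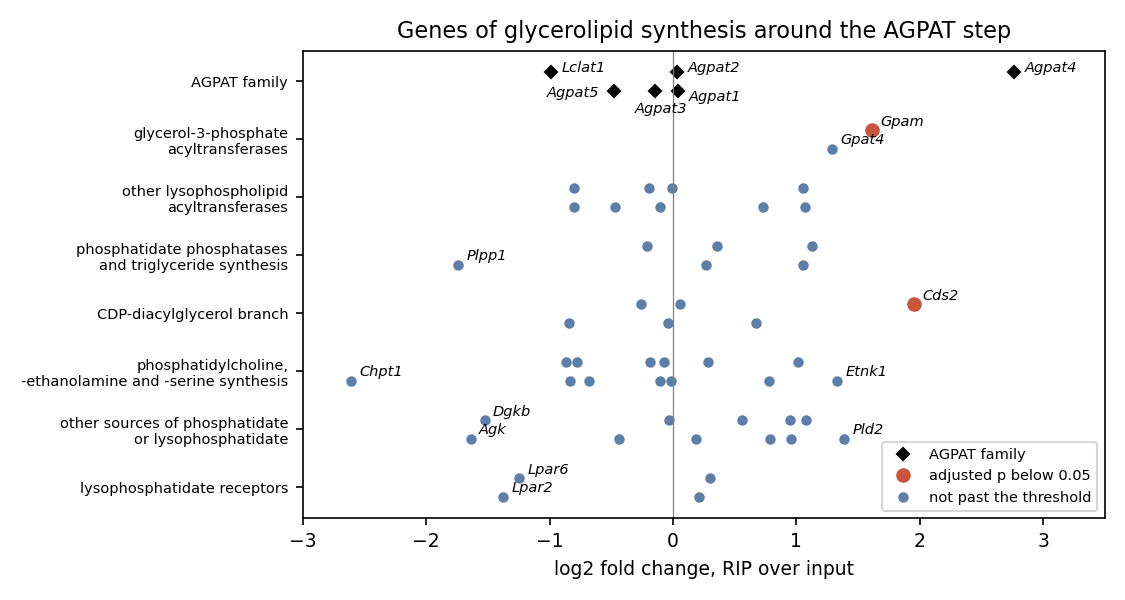
Log2 fold change of RIP over input for the tested genes of the glycerolipid list, 1 row a group, with the AGPAT family as black diamonds in the top row and points shifted up or down only for legibility. *Cds2* (1.95) and *Gpam* (1.61), in red, passed an adjusted p of 0.05. *Agpat4*, which was chosen for its rise, lies at 2.77, to the right of all 51 tested genes of the list.

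In the other 5 groups of the list edgeR without the block called no gene. Among 9 tested lysophospholipid acyltransferases outside the AGPAT family, log2 fold changes ran from -0.80 to 1.07, and *Lpgat1*, the one with the highest mean CPM, was at 1.07 (adjusted p = 0.151). The 6 tested phosphatidate phosphatases and triglyceride enzymes ran from -1.74 to 1.13, with *Plpp3* at 0.36 (adjusted p = 0.566). The 13 tested genes for phosphatidylcholine, phosphatidylethanolamine and phosphatidylserine ran from -2.61 to 1.33, with *Pcyt1b* at -0.01 (adjusted p = 0.985), a value whose sign changed with the scaling. Other sources of phosphatidic or lysophosphatidic acid, 11 of them tested, ran from -1.64 to 1.39, and *Dgkd*, a diacylglycerol kinase, was at 1.08 (adjusted p = 0.106). *Dgkd* was called with DESeq2 (1.09, adjusted p = 0.0476), with library size alone (1.45, adjusted p = 0.0483) and with limma on log2(FPKM + 1) (1.02, adjusted p = 0.0455). The 4 tested lysophosphatidic acid receptors ran from -1.38 to 0.30, with *Lpar6* at -1.25 (adjusted p = 0.160). Where no other tool is named, these p-values are from edgeR's quasi-likelihood test.

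The pattern of *Agpat4* over the 4 libraries was closest to those of *Gsk3b*, *Igsf3*, *Pdpk1*, *Atp6ap2* and *Cep97*, measured as the Euclidean distance between log2 CPM values centred on each gene's mean. Their distances ran from 0.371 for *Gsk3b*, a protein kinase of Wnt and insulin signalling, to 0.397 for *Cep97*, a centriole protein. *Gsk3b* went from 554 and 1404 counts to 4111 and 4021, and *Pdpk1*, the kinase that activates AKT, had 192 and 259 against 962 and 1012. All 5 were low in input replicate 1, intermediate in input replicate 2 and high in both RIP libraries, with log2 fold changes from 2.39 to 2.66. They share libraries and scaling with *Agpat4*, and being found by likeness to it their values are a description.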

How the data were processed

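The authors deposited a table of raw counts per gene, whole numbers with no normalization and no pooling of replicates, and FPKM values per gene, scaled by them for length and library size. The submitters' processing notes name STAR 2.5, HTSeq and GRCm38 but not the strand setting or annotation. Libraries were prepared with a stranded kit. Coordinates, transcripts and sequences came from GENCODE M21 (GRCm38), which matched 52403 of 52550 gene identifiers, with the longest protein-coding transcript of each gene.

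Groups and replicate numbers came from the sample titles. The count test was edgeR 4.0.16 in R 4.3.3 (filterByExpr with a minimum count of 10 and a minimum total of 15, TMM, glmQLFit and glmQLFTest) over all genes, with Benjamini-Hochberg adjustment. Alternatives used DESeq2 1.42.0, limma 3.58.1 on log2(FPKM + 0.1) and log2(FPKM + 1) where the mean FPKM reached 0.1, and mgcv 1.9.3 for trends on length and GC content. The series' design text gives each replicate an input and a pulldown, so the numbers pair the samples. Replicate differences of inputs and pulldowns had a Spearman correlation of -0.0322 across 13632 genes, and the replicate block was run as an alternative. The test was checked on simulated counts.

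Members and gene lists were chosen with earlier results of these data known. The genes named are the 6 members, the called genes of each group in the glycerolipid list or else its gene of highest mean CPM, the 5 genes with the smallest distance to *Agpat4* over the libraries among genes with a mean of at least 1 CPM, and genes that overlap a member. Read counts without molecular identifiers are not independent molecules, and 2 libraries against 2 limit the precision.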

Additional observations from a re-analysis of the deposited data

How the results depend on the processing

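*Agpat4* stayed above 0 under all 11 alternatives and in all 4 fits with a library left out. Its log2 fold change of 2.77 was 1.70 on log2(FPKM + 1), which shrinks weakly expressed genes by construction, and 3.21 with trends on length and GC content taken out and the replicate block, and ran from 2.39 to 3.27 with a library left out. None of the other 5 members was called in any fit. *Agpat5* and *Lclat1* stayed below 0 throughout. Values near 0 changed sign: with at least 10 counts in every library *Agpat1* was at -0.029 and *Agpat2* at -0.032, and *Agpat3* was at 0.20 with library size alone, 0.16 on log2(FPKM + 0.1) and 0.12 on log2(FPKM + 1). *Pcyt1b* was at 0.34 with library size alone, 0.071 with no filter on low counts, 0.23 on log2(FPKM + 0.1) and 0.14 on log2(FPKM + 1). With a library left out *Agpat1* ran from -0.23 to 0.37, *Agpat2* from -0.33 to 0.50, *Agpat3* from -0.47 to 0.27 and *Pcyt1b* from -0.072 to 0.22. *Agpat2* was at 0.57 with the trends taken out and 0.58 with the replicate block added. Library size alone moved the median of all tested genes from -0.05 to 0.27. The size of that shift differed between genes, with *Agpat4* going from 2.77 to 3.06 and *Agpat3* from -0.14 to 0.20. The cause of the other changes was not tested.

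Over all tested genes, the 474 called enriched became 845 with library size alone, 292 with no filter on low counts, 721 with the replicate block, 141 with trends on length and GC content taken out and 1286 by a log2 fold change past 1 with an unadjusted p below 0.05. The 1333 called depleted became 285 with those trends taken out, 583 with the trends and the replicate block and 2344 by the fold rule. In the glycerolipid list the 2 enriched became 4 with DESeq2, library size alone, the replicate block or log2(FPKM + 1), 0 with the trends taken out with or without the block, and 9 by the fold rule. The enriched genes over all genes also rose from 474, to 706 of 23345 fitted with DESeq2 and 602 of 14493 on log2(FPKM + 1). The 0 depleted became 1 with at least 10 counts in every library or the replicate block and 3 by the fold rule. Over all genes 1290 of 11252 were depleted with at least 10 counts in every library, and 1602 with the replicate block. At an unadjusted p below 0.05 alone, 10 genes of the list were enriched and 3 depleted by edgeR, and 9 and 2 by DESeq2. By limma 11 were enriched and 0 depleted on log2(FPKM + 0.1), and 10 and 0 on log2(FPKM + 1). The share of all tested genes past that limit was not computed, so nothing is read from these counts. The replicate block changed no call among the members. Fits with a library left out assume that the lone sample varies like the other group. They gave 2342 and 2539 enriched genes without input replicates 1 and 2 but 8 and 9 without RIP replicates 1 and 2, and from 112 to 2767 depleted genes. In the list they gave from 0 to 13 enriched and from 0 to 4 depleted genes.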

Other observations

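By a log2 fold change past 1 and an unadjusted p below 0.05, the limits that give 9.43% enriched and 17.2% depleted over all tested genes, the glycerolipid list had 9 enriched genes among 51 (17.6%) and 3 depleted. The 9 were *Cds2*, *Gpam*, *Gpat4*, *Lpgat1*, *Dgkd*, *Lpin1*, *Lpin2*, *Etnk1* and *Selenoi*. They include both tested glycerol-3-phosphate acyltransferases and the lipins *Lpin1* (1.13) and *Lpin2* (1.05), which turn phosphatidic acid into diacylglycerol. Their annotated transcripts were long, from 5518 to 8396 nt, against a median of 3339 nt for tested protein-coding genes. By the adjusted p, the 2 enriched genes of the list became 0 with trends on length and GC content taken out. In that fit the enriched genes over all tested genes fell from 474 to 141. The fold rule was not applied to that fit, and whether length accounts for the 9 genes was not tested. *Agpat4*, at 1915 nt, is shorter than each of them. These genes were singled out after their values were seen.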
